A study of Mus musculus with 26 samples.

Results

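The miR-148 and miR-152 family was described in small RNA libraries from CA1, the hippocampal field whose pyramidal neurons send the main output of the hippocampus. Its 5 members were taken by name from the deposited count table: mmu-miR-148a-3p, mmu-miR-148a-5p, mmu-miR-148b-3p, mmu-miR-148b-5p and mmu-miR-152-3p, written below without the species prefix. They are 5 of the 1915 mature miRNA names in the table, and all 5 were among the 605 that passed the filter on low counts. The family was chosen by name, but with earlier results of these libraries known: the values in view were the genotype difference of miR-148a-3p and its level in 1 wild type library. Group differences that involve the wild type libraries are therefore descriptions, with standard errors and no test.

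There were 26 libraries. Of these, 9 came from wild type littermates on vehicle, 7 from transgenic mice of the CamkdeltaC line on vehicle and 10 from mice of that line on Vorinostat, a histone deacetylase inhibitor also known as SAHA. Vehicle or drug was supplied in the drinking water. It began at 2 months of age, lasted 4 weeks and ended at 3 months, and both sexes were used. The series title links heart failure to memory impairment. The promoter that drives the transgene was not stated. Since no label ties a library to 1 animal of its own, p-values here cover only library-to-library spread, which may be technical. In dissected tissue, fewer cells of a type and less RNA per cell cannot be told apart.

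A miRNA pairs with messenger RNAs mainly through its seed, bases 2 to 8 from the 5′ end, and lowers their translation and stability. Each hairpin precursor gives a guide strand, which is loaded into Argonaute, and a passenger strand, which is mostly degraded. For this family the guides come from the 3′ arms. The family is known for repressing the DNA methyltransferases Dnmt1 and Dnmt3b, and miR-148a is best known as an abundant liver miRNA.

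The 3 guides are shown because they carry one seed and differ in few other bases, which bears on how their reads can be told apart. Mature sequences are from RefSeq on GRCm38.p6, 5′ to 3′, with the seed in capitals.
miR-148a-3p: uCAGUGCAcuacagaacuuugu
miR-148b-3p: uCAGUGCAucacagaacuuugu
miR-152-3p: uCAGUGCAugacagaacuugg
The seed CAGUGCA, which would pair with the target letters UGCACUG, was found in 3 of 1679 mature mouse names (0.179%), and these were the 3 guides. With positions counted from 1 at the 5′ end and the first-named guide as reference, miR-148a-3p and miR-148b-3p differ by C9U and U10C and are identical at 20 of 22 positions. miR-148a-3p and miR-152-3p differ by C9U, U10G and U20G, and miR-148b-3p and miR-152-3p by C10G and U20G. Because the number of mismatches that the authors' counting allowed is unknown, a share of reads assigned to the 2 rarer guides could belong to miR-148a-3p. No member held the same counts as another entry of the table.

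The passenger strands are shown to mark that miR-148a-5p and miR-148b-5p share a seed of their own.
miR-148a-5p: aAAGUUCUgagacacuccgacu
miR-148b-5p: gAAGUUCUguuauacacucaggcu
That seed, AAGUUCU, was held by these 2 names alone. The Mir148a hairpin, in lower case with both mature arms in capitals, shows the arm order, with 16 bases between the arms.
Mir148a: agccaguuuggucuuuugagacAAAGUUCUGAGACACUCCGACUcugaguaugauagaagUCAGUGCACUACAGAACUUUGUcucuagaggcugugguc

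The 3 genes lie on different chromosomes of GRCm38. Mir148a (chr6:51269812-51269910, minus strand) is between genes, 162760 bases from the nearest protein-coding gene on one side, Nfe2l3, and 615373 bases from that on the other, Npvf. Mir148b (chr15:103285125-103285221, plus strand) lies within Copz1, and Mir152 (chr11:96850393-96850465, plus strand) lies within Copz2. Copz1 and Copz2 encode zeta subunits of the COPI vesicle coat. Neither hairpin overlapped an exon of any transcript of its host that spans it, 4 for Mir148b and 3 for Mir152, so both are intronic.

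Library totals, in units of 1e6 counts, ran from 0.585 to 17.6 in wild type vehicle, 6.01 to 24.8 in transgenic vehicle and 3.89 to 15.7 in transgenic Vorinostat. Wild type vehicle replicate 1, at 0.585, stood apart. Its summed level of the 5 neuronal miRNAs listed (miR-128-3p and miR-9-5p the most abundant) was 196659 CPM (counts scaled by TMM factors to a library total of 1e6) against 308077 to 381275 in the other wild type libraries. The same list summed to between 309309 and 392238 CPM in transgenic vehicle and between 317673 and 469525 CPM in transgenic Vorinostat. Most of the sum comes from miR-128-3p and miR-9-5p. The rest of the list was low in replicate 1: miR-124-3p 1205 CPM, miR-138-5p 79.1 and miR-132-3p 585. Medians of the other 25 libraries were 6563, 489 and 943 CPM. In replicate 1, 3 of 6 microglia and leukocyte miRNAs were at 0: miR-142a-3p, miR-155-5p and miR-223-3p. Their medians in the other 25 libraries were only 3.12, 0.732 and 0.334 CPM, and 1 read of replicate 1 is 2.08 CPM. At that depth the zeros do not set it apart. Its 3 sensory and thalamic miRNAs (miR-182-5p, miR-183-5p and miR-96-5p) summed to 1330 CPM, against 50.8 to 205 in the other wild type libraries. Wild type values are therefore given with and without that library.

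miR-148a-3p was the main family product in CA1. It averaged 14861 ± 5052 CPM in wild type vehicle without replicate 1 (SD, n = 8), 13217 ± 6645 CPM in transgenic vehicle (SD, n = 7) and 21282 ± 15230 CPM in transgenic Vorinostat (SD, n = 10). With replicate 1 the wild type mean was 35027 ± 60682 CPM (SD, n = 9), while the median moved only from 12715 to 12892 CPM. By mean CPM miR-148a-3p ranked 10 of 1389 miRNAs with reads, or 12 without replicate 1. In replicate 1 alone it ranked 2 of 459.

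The level in single libraries shows how wide the spread was. Wild type vehicle replicates 2 to 9 held 22703, 9921, 12537, 10502, 12892, 21974, 16725 and 11634 CPM of miR-148a-3p, and replicate 1 held 196355. Transgenic vehicle replicates 2, 3, 5, 6, 8, 9 and 10 held 6492, 11845, 10166, 5662, 16050, 18191 and 24112 CPM. Transgenic Vorinostat replicates 1 to 10 held 12927, 11111, 9823, 11582, 9521, 14740, 24057, 57546, 32394 and 29120 CPM. The ranges of all 3 groups overlapped, with and without replicate 1. Both extreme libraries were the shallowest of their group: wild type replicate 1 and transgenic Vorinostat replicate 8, the latter with 3.89e6 counts.

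**Figure D1:**
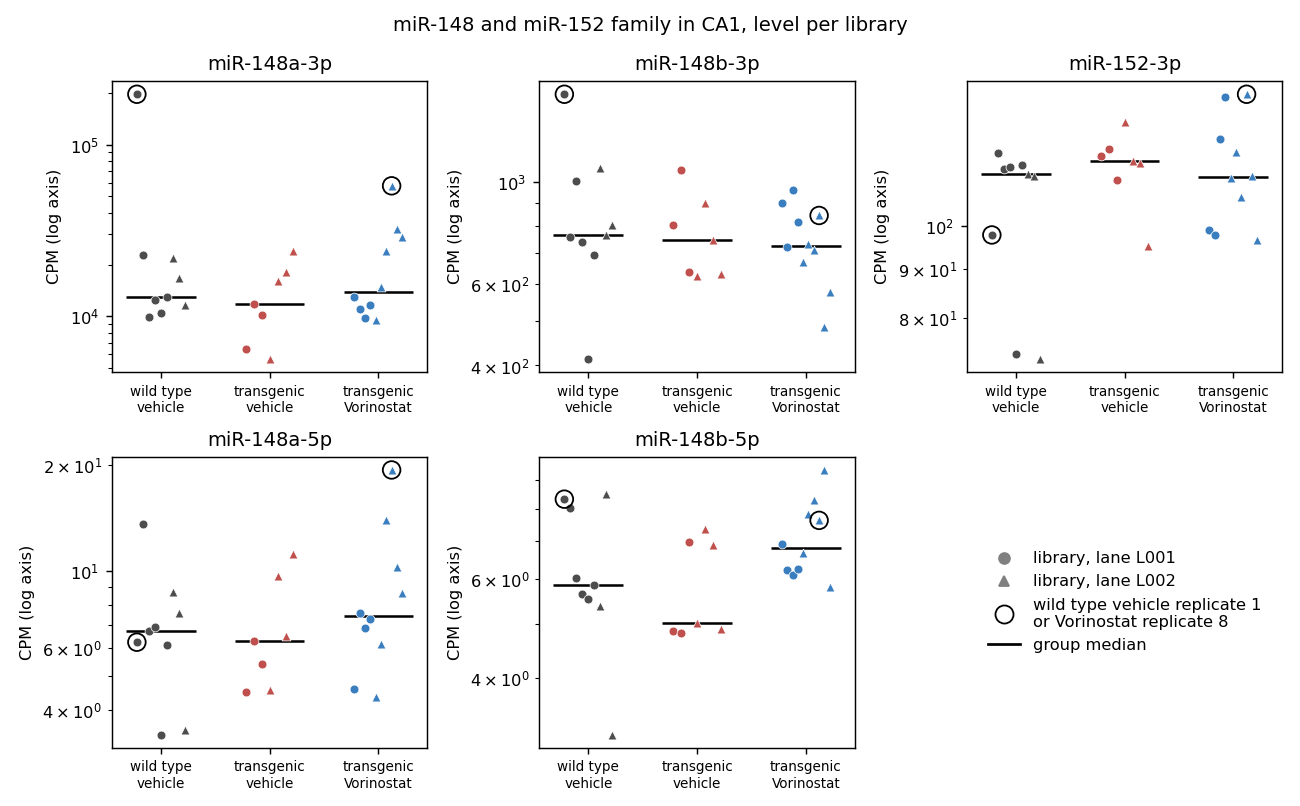
Level of each family member per library, in CPM on a log axis, by group. Points are libraries (circles lane L001, triangles lane L002), lines are group medians, and rings mark wild type vehicle replicate 1 and transgenic Vorinostat replicate 8. For miR-148a-3p the ringed libraries, at 196355 and 57546 CPM, lie above the rest of their groups, while the group medians, 12892, 11845 and 13833 CPM, lie close together.

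miR-148b-3p was the second guide. It averaged 867 ± 316 CPM in wild type vehicle (SD, n = 9), 771 ± 163 CPM in transgenic vehicle (SD, n = 7) and 742 ± 145 CPM in transgenic Vorinostat (SD, n = 10). Wild type libraries ran from 413 to 1546 CPM with a median of 765, transgenic vehicle from 625 to 1058 with a median of 749, and transgenic Vorinostat from 485 to 960 with a median of 726. The top wild type value was again replicate 1. Without it the wild type mean was 782 ± 200 CPM (SD, n = 8) and the highest library 1069 CPM, and the groups overlapped over most of their ranges.

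miR-152-3p, the rarest guide, was the steadiest. It averaged 104 ± 18.5 CPM in wild type vehicle (SD, n = 9), 115 ± 10.2 CPM in transgenic vehicle (SD, n = 7) and 114 ± 14.9 CPM in transgenic Vorinostat (SD, n = 10). The libraries ran from 72.5 to 119, 95.3 to 128.5 and 96.7 to 137 CPM in that order, with medians of 113, 117 and 112. Replicate 1, at 97.8 CPM, lay inside the range of its group, and without it the wild type mean was 105 ± 19.7 CPM (SD, n = 8). The log2 SD over all 26 libraries was 0.22 for miR-152-3p, 0.38 for miR-148b-3p and 1.04 for miR-148a-3p.

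The miR-148 passenger strands were rare. The Mir152 passenger, miR-152-5p, is not among the members but was counted, and the 3′ arm supplied 97.9 ± 0.995% of Mir152 reads (SD, n = 26). miR-148a-5p averaged 6.98 ± 3.03 CPM in wild type vehicle (SD, n = 9; 3.40 to 13.6, median 6.73), 6.87 ± 2.58 CPM in transgenic vehicle (SD, n = 7; 4.50 to 11.2, median 6.31) and 8.90 ± 4.63 CPM in transgenic Vorinostat (SD, n = 10; 4.36 to 19.4, median 7.42). miR-148b-5p averaged 6.27 ± 1.73 CPM in wild type vehicle (SD, n = 9; 3.18 to 8.50, median 5.85), 5.83 ± 1.18 CPM in transgenic vehicle (SD, n = 7; 4.81 to 7.38, median 5.01) and 7.11 ± 1.15 CPM in transgenic Vorinostat (SD, n = 10; 5.81 to 9.38, median 6.81). Without replicate 1 the wild type means were 7.07 ± 3.22 and 6.02 ± 1.65 CPM (SD, n = 8). Both strands rested on few reads, 3 of miR-148a-5p and 4 of miR-148b-5p in replicate 1.

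The order of levels was the same in every library for the guides: miR-148a-3p above miR-148b-3p, and miR-148b-3p above miR-152-3p. Every library had more miR-152-3p than either passenger strand, and the 2 passenger strands overlapped each other. These are read levels, and ligation and amplification can differ between small RNAs, so the ratios between members are ratios of reads.

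miR-148a-3p supplied 94.6 ± 2.53% of the reads with the family seed in wild type vehicle (SD, n = 9), 92.4 ± 3.59% in transgenic vehicle (SD, n = 7) and 94.6 ± 2.92% in transgenic Vorinostat (SD, n = 10). miR-148b-3p supplied 4.77, 6.61 and 4.68% and miR-152-3p 0.631, 1.03 and 0.694% on average. Without replicate 1 the wild type shares were 94.0 ± 1.99% for miR-148a-3p, 5.26 ± 1.85% for miR-148b-3p and 0.703 ± 0.194% for miR-152-3p (SD, n = 8). The 3 guides together took 1.45 ± 0.607% of the library in transgenic vehicle (SD, n = 7) and 2.01 ± 1.16% in transgenic Vorinostat (SD, n = 10). Wild type vehicle held 3.25 ± 4.90% (SD, n = 9), or 1.63 ± 0.467% without replicate 1 (SD, n = 8). In replicate 1 miR-148a-3p alone was 16.1% of all counts (95% Wilson interval 16.03 to 16.22%, counting error only), and in the other libraries it was at most 4.65%.

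The excess in replicate 1 was uneven within the family. Against the median of the other 25 libraries it held 15.2-fold more miR-148a-3p, 2.06-fold more miR-148b-3p and 1.34-fold more miR-148b-5p in CPM. For miR-152-3p the ratio was 0.853 and for miR-148a-5p 0.913. Over all 605 miRNAs the median ratio was 0.423, and miR-148a-3p ranked 9 among the 20 miRNAs above 10-fold. Replicate 1 held 31456 reads of miR-148a-3p per read of miR-148a-5p, against 1244 to 3371 in the other 25 libraries. With 3 reads of miR-148a-5p, the exact binomial interval of that ratio was 10763 to 152534. It covers counting error only, since reads amplified by PCR are not independent molecules, and it describes a library known beforehand to be extreme in miR-148a-3p.

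Counts rather than CPM show the same library. Replicate 1 had 94367 reads of miR-148a-3p, inside the 37322 to 362600 of the other libraries, although its total was below all others. Over 26 libraries the log10 count of miR-152-3p followed the log10 total with a slope of 1.10 (Pearson r = 0.980, Spearman rho = 0.908) and that of miR-148b-3p with a slope of 0.94 (r = 0.919, rho = 0.814). These relations are descriptions with no test, since a count is part of its library total and scales with sequencing depth. The passenger strands gave r = 0.887 (rho = 0.715) for miR-148a-5p and r = 0.964 (rho = 0.871) for miR-148b-5p. For miR-148a-3p the slope was 0.312, with r = 0.453 and rho = 0.483.

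Without replicate 1 the slope of miR-148a-3p counts on totals was 0.582 with r = 0.484, and without the 2 libraries farthest from the median total, replicate 1 and transgenic Vorinostat replicate 8, r was 0.607. Within lane L001 r was 0.595, and within lane L002 it was 0.436. The lane is the flow cell lane in the deposited column names. Among the other members, r without those 2 libraries ran from 0.724 for miR-148a-5p to 0.919 for miR-152-3p, and within L002 miR-148a-5p had r = 0.532.

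**Figure D2:**
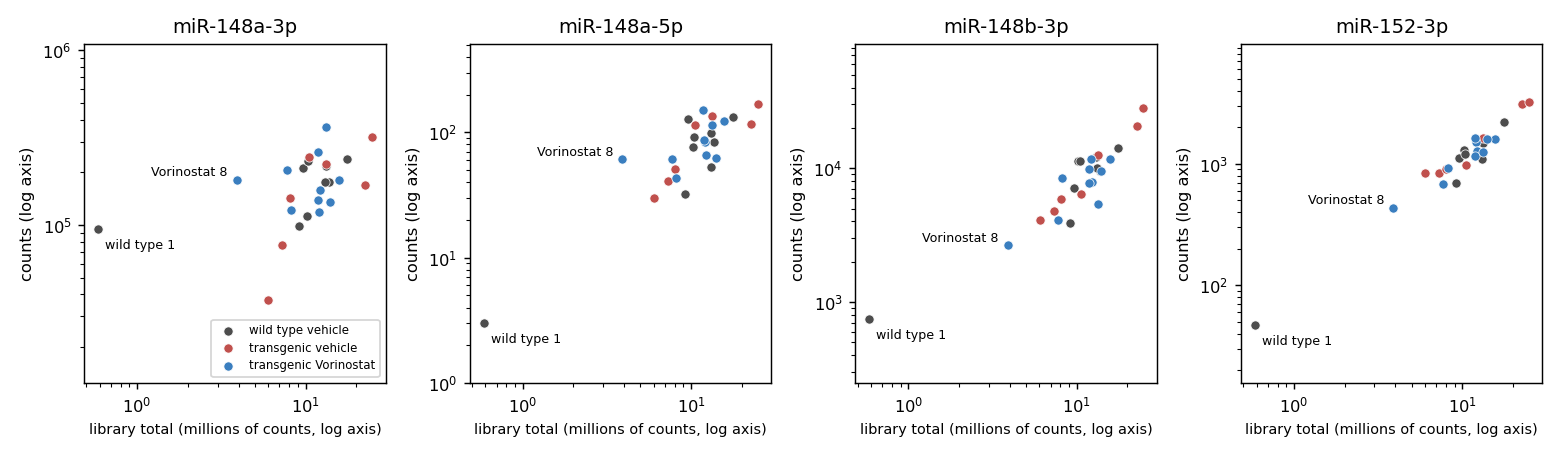
Counts of 4 family members (log axis) against the library total in units of 1e6 counts (log axis), 1 point per library, coloured by group. miR-152-3p and miR-148b-3p counts follow the total, and miR-148a-3p counts of wild type vehicle replicate 1, 94367 at a total of 0.585, lie within those of libraries with far higher totals.

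The genotype comparison asks how transgenic CA1 differs from wild type CA1 on vehicle. The log2 difference of miR-148a-3p, transgenic minus wild type, was -1.41 (SE 0.59), and without replicate 1 it was -0.18 (SE 0.36). Within lane L001, which holds replicate 1, it was -2.04, and within L002 it was -0.07. The other 4 members gave log2 differences of -0.17 (SE 0.20) for miR-148b-3p, -0.03 (SE 0.31) for miR-148a-5p, -0.07 (SE 0.19) for miR-148b-5p and 0.15 (SE 0.14) for miR-152-3p. Without replicate 1 they lay between -0.07 and 0.12. In all, 1 of 5 members was higher and 4 were lower, with a median log2 difference of -0.07, beside 0.03 over all 605 miRNAs. Without replicate 1 the counts were again 1 and 4, and the median was -0.04, beside -0.01 over the 606 miRNAs then tested. By the quasi-likelihood test of edgeR 0 of 605 miRNAs (0%) were called at an adjusted p under 0.05 here, against 13 (2.15%) at an unadjusted p under 0.05. DESeq2 and limma voom called 0, with 18 and 7 at an unadjusted p under 0.05.

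Of the 8 marker lists, 3 had all their members on one side in the genotype comparison, with 0 members called in any list. In transgenic vehicle the sensory and thalamic list had 3 of 3 members lower (median log2 difference -1.29, or -0.38 without replicate 1). The oligodendrocyte list had 4 of 4 higher (0.41, or 0.29 without replicate 1), and the endothelial and vessel wall list had 4 of 4 higher (0.13, or 3 of 4 and 0.13 without replicate 1). Without replicate 1 the erythrocyte list had 4 of 4 higher (0.11), against 2 of 4 with it. The summed sensory and thalamic level was 60.0 to 140 CPM in transgenic vehicle and 96.4 to 511 CPM in transgenic Vorinostat, and none of its 3 miRNAs was at 0 in replicate 1. The oligodendrocyte list summed to 1642 CPM in replicate 1, to 959 to 1535 CPM in the other wild type libraries and to 957 to 2122 CPM in transgenic vehicle. Most of the sum in replicate 1 was miR-219a-2-3p, at 1575 CPM against a median of 939 in the other 25 libraries. The miR-338 strands were lower there, miR-338-3p at 16.6 against 132 CPM and miR-338-5p at 49.9 against 287. miR-219a-5p was at 0, with a median of only 3.39 CPM in the others. The endothelial list summed to 9041 CPM in replicate 1, 6370 to 12019 in the other wild type libraries and 6144 to 11520 in transgenic vehicle. Its members differed in replicate 1: miR-143-3p was at 5936 CPM against a median of 2737 in the other 25 libraries. miR-126a-3p was lower, at 3084 against 5986 CPM, as were miR-126a-5p, at 10.4 against 56.7, and miR-145a-5p, at 10.4 against 33.6. The part of these markers in the miR-148a-3p values was not tested.

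For the other lists, replicate 1 is set against the other wild type libraries. The erythrocyte list summed to 2033 CPM against 518 to 701, choroid plexus and ependyma to 379 against 453 to 751, microglia and leukocyte to 83.2 against 391 to 558, and liver and plasma to 306 against 345 to 506. miR-122-5p, the defining hepatocyte miRNA, was at 2.08 CPM in replicate 1, which is 1 read. The part of these markers was not tested either.

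The Vorinostat comparison, between randomised transgenic mice, does not use the wild type libraries for its means, and it was tested. Its vehicle libraries, however, also entered the genotype difference of miR-148a-3p that was in view when the family was chosen. Tests of miR-148a-3p against transgenic vehicle, here and below, are therefore not independent of that choice. miR-148a-3p was 0.69 log2 units higher with Vorinostat (SE 0.56, approximate 95% interval -0.42 to 1.79, edgeR adjusted p = 0.836), within the spread between libraries. A wild type library enters that spread, and without replicate 1 the same difference was 0.66 (SE 0.35, edgeR adjusted p = 0.738). It was above the vehicle median in 6 of 10 Vorinostat libraries and above every vehicle library in 3, replicates 8, 9 and 10. Those 3 libraries were all in lane L002. Within L001 the log2 difference was 0.23 (SE 0.84, edgeR adjusted p = 0.9997) and within L002 it was 0.78 (SE 0.46, edgeR adjusted p = 0.906). Without transgenic Vorinostat replicate 8 the log2 difference was 0.39 (edgeR adjusted p = 0.998).

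In this comparison 2 marker lists had all their members on one side, again with 0 members called. With Vorinostat the sensory and thalamic list had 3 of 3 members higher (median log2 difference 1.10, or 0.88 without replicate 8, which held the 511 CPM), and the oligodendrocyte list had 4 of 4 lower (-0.29, or -0.21 without replicate 8). Without replicate 8 the choroid plexus and ependyma list had 6 of 6 higher (0.08), against 5 of 6 with it. The oligodendrocyte sum was 975 to 1691 CPM with Vorinostat. The endothelial list had 2 higher and 2 lower (0.02), but its sum in replicate 8 was 22636 CPM, the highest of all libraries. The part of these markers in the miR-148a-3p values was not tested.

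The passenger miR-148a-5p was 0.35 log2 units higher with Vorinostat (SE 0.30, interval -0.24 to 0.94, edgeR adjusted p = 0.836), above the vehicle median in 7 of 10 libraries, and 0.17 higher without replicate 8, which held its highest level, 19.4 CPM. miR-148b-5p differed by 0.29 (SE 0.18, interval -0.06 to 0.64, edgeR adjusted p = 0.836), and all 10 Vorinostat libraries lay above the vehicle median of 5.01 CPM although the ranges overlapped. miR-148b-3p differed by -0.06 (SE 0.19, interval -0.43 to 0.32, edgeR adjusted p = 0.950) and miR-152-3p by -0.01 (SE 0.13, interval -0.27 to 0.25, edgeR adjusted p = 0.975). The sign of the last 2 turned under some settings, at 0.04 for miR-148b-3p without transgenic vehicle replicate 3 and at 0.03 for miR-152-3p with upper quartile factors. In this comparison 3 of 5 members were higher and 2 lower, with a median of 0.29, beside -0.01 over all tested miRNAs. In edgeR 0 of 605 miRNAs (0%) were called, 21 (3.47%) had an unadjusted p under 0.05, and DESeq2 and voom called 0, with 26 and 16 at an unadjusted p under 0.05.

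Transgenic libraries that share a number were also compared as 7 pairs, an alternative that was not planned. Their deviations correlated, but the same correlation was not computed for libraries with different numbers, so a true pairing is not shown. In the pairs miR-148a-3p was higher with Vorinostat in 5 of 7, miR-148a-5p in 5, miR-148b-5p in 6, miR-152-3p in 4 and miR-148b-3p in 2. With the pair as a block, edgeR called 5 of 567 miRNAs (0.882%), with 147 (25.9%) at an unadjusted p under 0.05, and none of the 5 was a family member. The blocked log2 difference of miR-148a-3p was 0.67 (SE 0.22, adjusted p = 0.0861), of miR-148b-5p 0.29 (adjusted p = 0.309) and of miR-148a-5p 0.33 (adjusted p = 0.333).

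Against wild type vehicle, the Vorinostat libraries share those controls with the genotype comparison, so the values are given beside each other. miR-148a-3p had a log2 difference of -0.72 (SE 0.52) with all libraries and 0.48 (SE 0.33) without replicate 1. The others were -0.22 (SE 0.18) for miR-148b-3p, 0.32 (SE 0.28) for miR-148a-5p, 0.22 (SE 0.17) for miR-148b-5p and 0.14 (SE 0.12) for miR-152-3p. Only the sign of miR-148a-3p turned when replicate 1 was left out. Here 0 of 605 miRNAs (0%) were called by edgeR, 19 (3.14%) had an unadjusted p under 0.05, and DESeq2 and voom called 0, with 29 and 23 at an unadjusted p under 0.05.

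**Figure D3:**
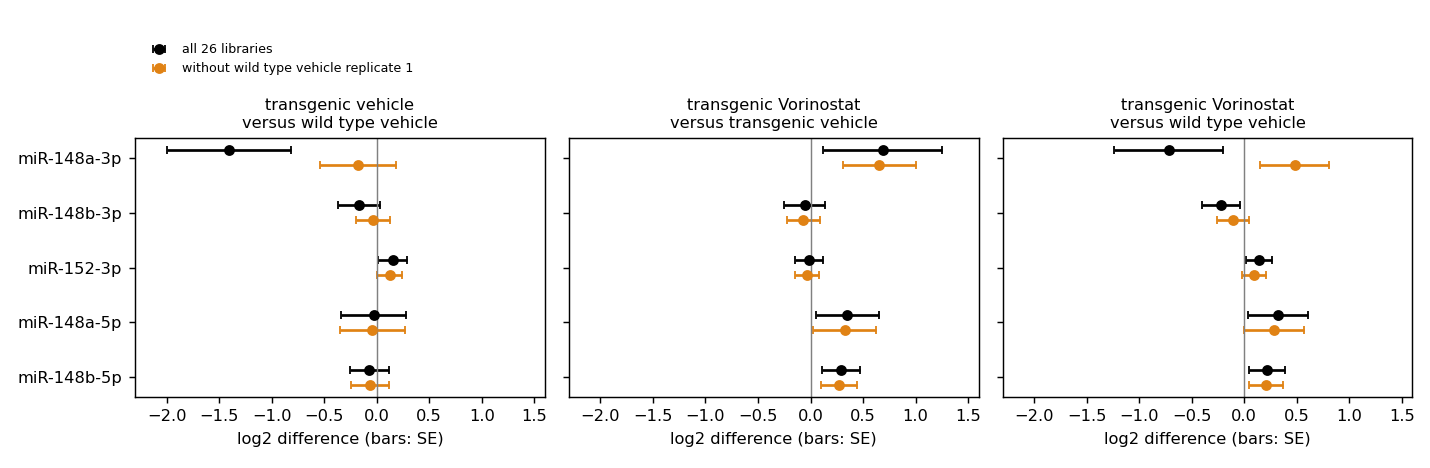
log2 differences of the 5 members in the 3 comparisons, with bars of 1 SE, from all 26 libraries (black) and without wild type vehicle replicate 1 (orange). For miR-148a-3p the genotype value moves from -1.41 to -0.18 and the Vorinostat against wild type value from -0.72 to 0.48, while each value of the other 4 members moves by less than 1 SE.

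DESeq2 gave -0.16 for miR-148a-3p in the genotype comparison with all libraries present, close to the value without replicate 1. It had replaced the count of 94367 in replicate 1 by 6793 as an outlying count before it fitted. voom gave -0.59 (SE 0.46).

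The authors' deposited table of normalized log2 values gave another picture of the same guide. In it miR-148a-3p averaged 12.36 ± 0.97 in wild type vehicle (SD, n = 9), 12.07 ± 0.46 without replicate 1 (SD, n = 8), 11.12 ± 0.38 in transgenic vehicle (SD, n = 7) and 12.34 ± 0.48 in transgenic Vorinostat (SD, n = 10). All transgenic vehicle values, 10.69 to 11.72, lay below all Vorinostat values, 11.83 to 13.42. The log2 CPM of the same groups had SDs of 0.77 and 0.88 and overlapped. The steps behind the authors' values are not described in the labels or headers. Non-overlap and p-values from them therefore cannot be read like those from the counts.

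With limma on those values, miR-148a-3p was 1.22 log2 units higher with Vorinostat than with vehicle in transgenic mice (SE 0.32, adjusted p = 0.00344), miR-148a-5p 0.65 (adjusted p = 0.00440) and miR-148b-5p 0.35 (adjusted p = 0.0135). miR-148b-3p (-0.00098, adjusted p = 0.996) and miR-152-3p (-0.07, adjusted p = 0.610) did not pass. Those 3 of 5 members stand beside 362 of 674 miRNAs (53.7%) called in that table, a share close to theirs. Both miR-148a strands had ranges that did not overlap between the transgenic groups, as did 92 of 674 miRNAs (13.6%). For genotype, limma called 367 of 674 (54.5%) on those values, and the members' differences were -1.24 (SE 0.32) for miR-148a-3p, -0.56 (SE 0.18) for miR-148a-5p, -0.50 (SE 0.17) for miR-148b-3p, -0.30 (SE 0.12) for miR-148b-5p and 0.00214 (SE 0.12) for miR-152-3p. Between Vorinostat and wild type, 6 of 674 (0.89%) were called. The median of all miRNAs in that table was 0.19 for genotype and -0.24 for Vorinostat.

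**Figure D4:**
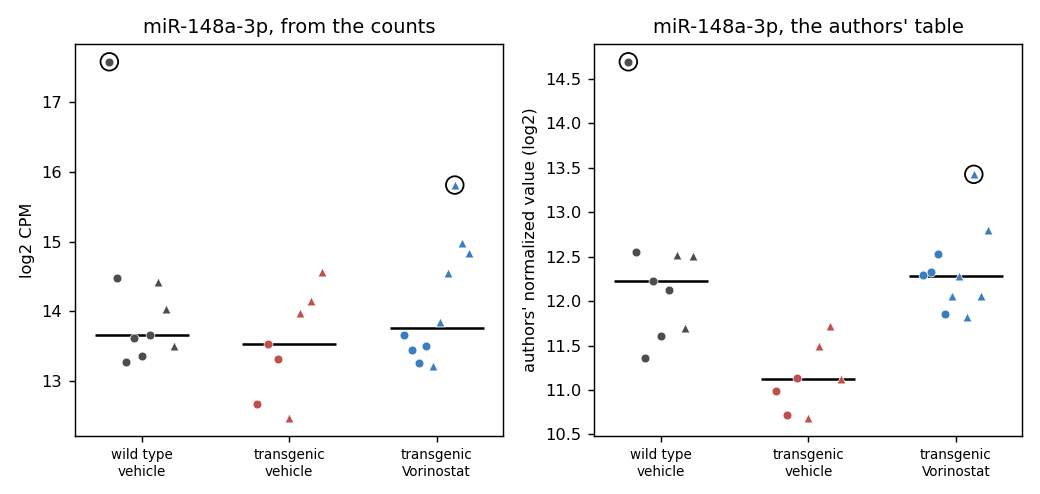
miR-148a-3p per library as log2 CPM computed from the counts (left) and as the authors' normalized log2 value (right), by group, with lines at the medians, circles for lane L001, triangles for lane L002 and the same 2 ringed libraries. The transgenic groups overlap on the left and do not overlap on the right, where transgenic vehicle ends at 11.72 and transgenic Vorinostat starts at 11.83.

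Arm choice and family make-up, which do not depend on the scaling of a library, were compared between the transgenic groups by exact permutation tests. The 3′ arm supplied 99.94 ± 0.0147% of Mir148a reads on vehicle (SD, n = 7) and 99.95 ± 0.0156% with Vorinostat (SD, n = 10), a difference of 0.00928 percentage points (two-sided exact permutation p = 0.232, adjusted over 3 tests 0.232). For Mir148b the shares were 99.22 ± 0.205% and 99.00 ± 0.352%, a difference of -0.223 points (exact permutation p = 0.148, adjusted 0.232). The miR-148a-3p share of the 3 guides was 2.27 points higher with Vorinostat (exact permutation p = 0.169, adjusted 0.232). None of the 3 differences exceeded the spread between libraries.

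Members were also compared across libraries. miR-148a-3p and its passenger miR-148a-5p varied together over 26 libraries in log2 CPM, with r = 0.536 (permutation p = 0.00534, adjusted over 5 pairs 0.0267) and rho = 0.685 (permutation p = 1.8e-04, adjusted 9e-04). Scaled by library totals alone, r was 0.378 and did not pass (adjusted permutation p = 0.0953), while rho was 0.608 and passed (adjusted permutation p = 0.00565). Without replicate 1 and transgenic Vorinostat replicate 8, the libraries farthest from the median, r with TMM scaling was 0.751. Within L001 r was 0.223, or 0.681 without replicate 1 (adjusted permutation p = 0.063), and this fell to 0.0158 without the 2 farthest of those 12 libraries, so it rests on them. Within L002 r was 0.862 over 13 libraries (adjusted permutation p = 9.5e-04).

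No pair of guides passed the test with TMM scaling. miR-148a-3p against miR-148b-3p gave r = 0.341 and rho = 0.0537 (adjusted permutation p = 0.229 and 0.979), and r was -0.0738 without replicate 1. miR-148a-3p against miR-152-3p gave r = -0.0621 and rho = -0.188 (adjusted p = 0.936 and 0.593), and miR-148b-3p against miR-152-3p r = 0.264 and rho = 0.320 (adjusted p = 0.318 and 0.278). miR-148b-3p and its passenger miR-148b-5p gave r = 0.00921 and rho = 0.00581 (adjusted p = 0.963 and 0.979). Without the 2 libraries farthest from the median of the first-named member, r was -0.165, -0.119, 0.170 and -0.249 for these 4 pairs. With library totals alone as the scaling, miR-148a-3p against miR-152-3p passed (r = -0.532, adjusted permutation p = 0.0239). So did miR-148b-3p against miR-152-3p by rank (rho = 0.431, adjusted permutation p = 0.0483) but not by r (0.389, adjusted permutation p = 0.0953).

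**Figure D5:**
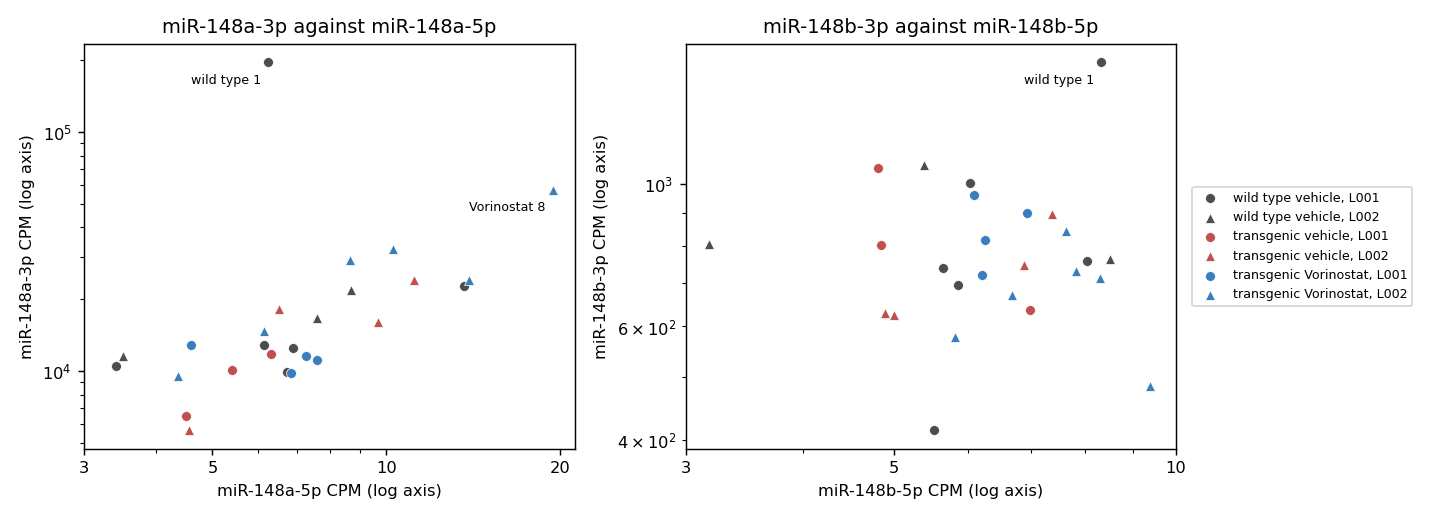
Guide against passenger strand of the Mir148a (left) and Mir148b (right) hairpins, in CPM on log axes, 1 point per library, coloured by group with circles for lane L001 and triangles for lane L002. The miR-148a strands rise together except in wild type vehicle replicate 1, at 196355 CPM of miR-148a-3p and 6.24 CPM of miR-148a-5p, and the miR-148b strands show no such relation (r = 0.00921).

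The miRNAs most like each guide were named by Pearson r of log2 CPM, as a description. The points share each library's depth and handling. For miR-148a-3p over 26 libraries they were miR-671-3p (r = 0.973), miR-1981-5p (0.973) and miR-1964-3p (0.971), which all had over 10-fold more CPM in replicate 1 than the median of the other libraries. Without replicate 1 they were miR-708-3p (0.960), miR-1981-5p (0.951) and miR-1964-3p (0.950). For miR-148b-3p they were miR-140-3p (0.658), miR-582-3p (0.652) and miR-128-1-5p (0.596), and without replicate 1 miR-145a-5p (0.701), miR-136-3p (0.694) and miR-667-3p (0.658). For miR-152-3p they were let-7j (0.706), miR-325-5p (0.627) and miR-361-3p (0.586), and without replicate 1 let-7j (0.733), miR-325-5p (0.683) and miR-101b-3p (0.666).

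In the authors' deposited table of 5 co-expression modules, 4 members fell in the blue module of 197 miRNAs and miR-152-3p in the turquoise module of 404. Membership in blue was 0.932 for miR-148a-3p, 0.580 for miR-148a-5p, 0.458 for miR-148b-5p and 0.336 for miR-148b-3p. miR-148a-3p had a membership of -0.959 in turquoise, and miR-152-3p had 0.363. The values of miR-152-3p in 2 modules it was not assigned to were further from 0, 0.655 in brown and -0.561 in green. The modules were built from these libraries and are not independent of the values above.

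Other miRNAs reported to repress DNA methyltransferases formed a list of 8, all tested, led in abundance by miR-29a-3p and miR-143-3p. In the genotype comparison 8 of 8 were higher in transgenic vehicle and 0 were called (median log2 difference 0.19). Among all 605 miRNAs 54.4% were higher. Without replicate 1 it was 7 of 8 (0.18), beside 48.0% of all 606. With Vorinostat 2 were higher and 6 lower, with 0 called (median -0.22), beside 49.3% of all 605 higher. Against wild type the Vorinostat libraries had 4 higher and 4 lower, with 0 called. miR-29a-3p differed by 0.33 (SE 0.26) for genotype and -0.36 (SE 0.25) for Vorinostat, and miR-143-3p by 0.03 (SE 0.38) and 0.49 (SE 0.38). The summed level of the list was 9422 CPM in replicate 1, below the 11405 to 13695 CPM of the other wild type libraries, whereas its miR-148a-3p was above them. The list was not uniform there. miR-143-3p was at 5936 CPM against a median of 2737 in the other 25 libraries, and miR-101a-3p at 1436 against 1064. miR-29a-3p, at 1159 against 6112 CPM, and the remaining members were below their medians.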

How the data were processed

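Small RNA of dissected CA1 was sequenced from 26 libraries made with the TruSeq Small RNA kit as 50 base single reads, per the labels' protocols. The authors deposited a raw count for each mature miRNA, normalized log2 values of 674 miRNAs, and a score of module membership with its p-value, the last not used, per the file headers. FastQC 0.11.5 and mm10 are named in the submitters' processing notes. The sources used here do not give the aligner, mismatch settings or normalization.

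Counts were scaled with TMM factors and filtered with filterByExpr (minimum count 10, total 15), which kept 605 miRNAs. They were tested in edgeR 4.0.16 (R 4.3.3) by the quasi-likelihood test over all 3 groups with no covariate, two-sided, with Benjamini-Hochberg adjustment over all miRNAs at 0.05. limma 3.58.1 tested the deposited log2 values as they stood, with no pseudocount. DESeq2 1.42.0 and voom, other scaling and filters, each library left out, lanes and replicate blocks were alternatives. Marker list counts without 2 single libraries were added after seeing the data. Log2 CPM for correlations used a prior count of 0.5 and 100000 permutations. Shares were tested by exact permutation. Fits were tested on simulated data. Intervals of log2 differences are approximate, from the SE.

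The pairing check correlated the deviations of same-numbered libraries from their group means. It gave 0.280 to 0.571 for the 7 numbers shared by the transgenic groups, which were treated as pairs from the data and not from the labels. The same correlation was not computed for libraries with different numbers, and most same-numbered transgenic libraries also shared a lane. The values therefore do not establish pairing. Numbers shared with wild type gave -0.415 to 0.399 (transgenic vehicle) and -0.471 to 0.542 (Vorinostat) and were not treated as pairs.

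The members and lists were chosen with earlier results of these data known. Named besides the members were the 3 miRNAs most like each guide and the 2 most abundant of a list. Sequences came from RefSeq tables of GRCm38.p6, where all 5 members matched, and gene positions from GENCODE on the same assembly.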

Additional observations from a re-analysis of the deposited data

Results flagged for a closer look

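Samples far from the rest of their group were sought in 24 sets of values, the CPM of each member and the family shares in each group, by Dixon's ratio of a gap to the range. For normally distributed values chance gives about 1 such value in 20 sets. The CPM were not logged and the arm shares lie near their upper limit, so that rate need not hold here. Of the 3 found, the first was in view when the family was chosen, so it restates a known value and cannot be read against that rate. In it, wild type vehicle replicate 1 had 196355 CPM of miR-148a-3p, and the nearest library of its group 22703. Transgenic Vorinostat replicate 8 had 57546 CPM of miR-148a-3p, and the nearest library of its group 32394. In transgenic Vorinostat replicate 9 the 3′ arm supplied 98.1% of Mir148b reads, and the nearest library of its group had 98.8%.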

How the results depend on the processing

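Leaving out each of the 26 libraries in turn left 0 miRNAs called in every comparison. The log2 difference of miR-148a-3p then ran from -1.62 to -0.18 for genotype, from -1.02 to 0.48 for Vorinostat against wild type, and from 0.39 to 0.90 for Vorinostat against vehicle (adjusted p 0.671 to 0.998). Within L002 it was -0.07 for genotype and 0.71 for Vorinostat against wild type, and DESeq2 gave -0.16 and 0.42. The authors' normalized values gave 367, 362 and 6 calls in the 3 comparisons where counts gave 0, and the cause was not tested. The replicate block over 7 pairs gave 5 calls for Vorinostat and changed no member's call. A block over all 26 libraries gave 0.53 for miR-148a-3p (adjusted p = 0.790), and paired sign flips of the share differences gave an adjusted exact p of 0.141. Signs turned for miR-148b-3p under Vorinostat without transgenic vehicle replicate 3 (0.0387; -0.165 to 0.0387 over the libraries left out), and for miR-152-3p with upper quartile factors (0.0343), a mean of at least 10 CPM (0.0107) and without transgenic Vorinostat replicate 10 (0.00784; -0.105 to 0.00784 over the libraries left out). The Mir148a arm share difference was -0.000383 points within L001. Leaving out libraries kept the Mir148a difference between 0.00538 and 0.0128 points, that of Mir148b between -0.275 and -0.124, and the guide share between 1.47 and 3.06. The miR-148a-3p and miR-148a-5p correlation was 0.378 with library totals only (adjusted permutation p = 0.0953), 0.223 within L001, 0.681 there without replicate 1, and 0.816 over the 25 libraries without it. Other correlations changed sign or side of the threshold: miR-148a-3p with miR-148b-3p (-0.0738 without replicate 1, -0.0155 within L001 without it), miR-148a-3p with miR-152-3p (-0.532 with totals only, adjusted p = 0.0239; 0.066 without replicate 1, 0.0615 within L001 without it, 0.119 within L002), miR-148b-3p with miR-152-3p (rho 0.431 with totals only, adjusted p = 0.0483) and the miR-148b strands (-0.0806, -0.148, -0.0711 and -0.182 in the same order of settings). Relations of counts to totals within L002 were 0.436 for miR-148a-3p and 0.532 for miR-148a-5p, against 0.453 and 0.887 over all libraries. Depth limits the passenger strands most, with 3 and 4 reads in replicate 1.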
